A study of Oryza sativa with 12 samples.

Results

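Heat-stress genes were followed in rice inflorescence meristems: the heat-stress transcription factor gene HSF11 and the small heat shock protein gene HSP17.4. The gene table attaches HSF11 to 2 genes, so the names found 3 genes among the 15140 genes with a probe. LOC4334080 is listed there as HSFA2A and LOC4324158 as HSFC1B, and both carry HSF11 as a further name. HSP17.4 is LOC4332360. Each gene had 1 probe, and none of these probes shared its values with another probe. HSF11 and HSP17.4 were chosen by their difference between asp1-10 and wild type (WT) on these arrays. That difference belongs to HSFA2A and not to HSFC1B, so the HSF11 genes are named HSFA2A and HSFC1B below.

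The arrays covered 4 genotypes with 3 arrays each: the double mutant fon2-3 asp1-fe, the mutant asp1-10, the mutant fon2-3, and WT. FON2 is a CLAVATA3-like signalling peptide that keeps the meristem small, and ASP1 is a corepressor of the TOPLESS family. The asp1 allele of the double mutant is not that of the asp1-10 line, so the effect of the allele and that of fon2-3 cannot be told apart between these lines. All plants grew outdoors in pots of soil, no heat treatment is named for any group, and the labels used here give no temperature, hour of sampling, age, batch or number of plants per sample.

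Heat-stress transcription factors bind short repeated elements in promoters and switch on chaperone genes when proteins unfold. In Arabidopsis, class A2 factors are made in large amounts during heat and extend the response, while class C factors lack the activation motif typical of class A. Small heat shock proteins such as HSP17.4 hold unfolding proteins in a soluble state, and ClpB chaperones of the HSP100 family pull aggregates apart with HSP70. The same genes can respond to other stresses, and some chaperones are made during normal development.

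Values are log2 signals. A genotype whose mean lay under 5.55, the median over all probes and arrays, is called dim: such a signal may be background, and a fold that involves it may be understated. Array medians lay between 5.51 and 5.60, and pairs of arrays correlated at 0.962 to 0.986. Replicate 3 of asp1-10 stood apart, with a mean correlation of 0.975 within its own genotype and 0.983 with fon2-3. Of the meristem markers, OSH1 read between 7.24 and 9.06 on the 12 arrays. The mean of 7 meristem markers lay at 7.17 to 7.69 in the double mutant, 7.62 to 7.72 in asp1-10, 6.88 to 8.01 in fon2-3 and 6.06 to 6.95 in WT. Against WT, OSH15, OSH71, APO2 and OSH1 rose in the double mutant, OSH15, OSH71 and APO2 in asp1-10, and OSH15 and OSH71 in fon2-3. FON1, LAX1 and WOX4 did not pass against WT in any mutant. WOX4 was lower in each (-0.08 in the double mutant, -0.13 in asp1-10 and -0.26 in fon2-3), and LAX1 in the double mutant (-0.43). In bulk tissue, fewer cells of a type and less RNA per cell cannot be told apart.

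HSFA2A read 3.65, 3.72 and 4.01 in the 3 double mutant arrays. It read 8.50, 6.96 and 4.84 in asp1-10. It read 4.15, 4.18 and 4.06 in fon2-3, and 3.54, 4.10 and 3.44 in WT. The asp1-10 arrays were all above the other 9, and they were spread over more than the whole range of the others. The asp1-10 mean was 6.76 (SD 1.84, n = 3), while the double mutant (3.79, SD 0.191), fon2-3 (4.13, SD 0.0608) and WT (3.70, SD 0.354) were dim.

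HSP17.4 read 6.21, 7.29 and 6.53 in the double mutant and 9.51, 8.07 and 8.03 in asp1-10. It read 5.67, 6.03 and 5.35 in fon2-3, and 5.995, 5.95 and 5.54 in WT. Here too every asp1-10 array lay above the other 9, but the double mutant arrays formed a second step, all above the fon2-3 and WT arrays. The means were 6.68 (SD 0.552) in the double mutant, 8.54 (SD 0.844) in asp1-10, 5.68 (SD 0.337) in fon2-3 and 5.83 (SD 0.253) in WT, and none was dim.

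HSFC1B read 5.13, 4.74 and 3.78 in the double mutant, 4.49, 4.32 and 4.38 in asp1-10, and 4.77, 3.74 and 4.43 in fon2-3. In WT it read 5.12, 4.89 and 4.98. It was dim in all 4 genotypes, with means of 4.55, 4.40, 4.32 and 4.99, and its mutant arrays overlapped one another. The asp1-10 and fon2-3 arrays all lay below WT, and the double mutant overlapped WT.

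**Figure D1:**
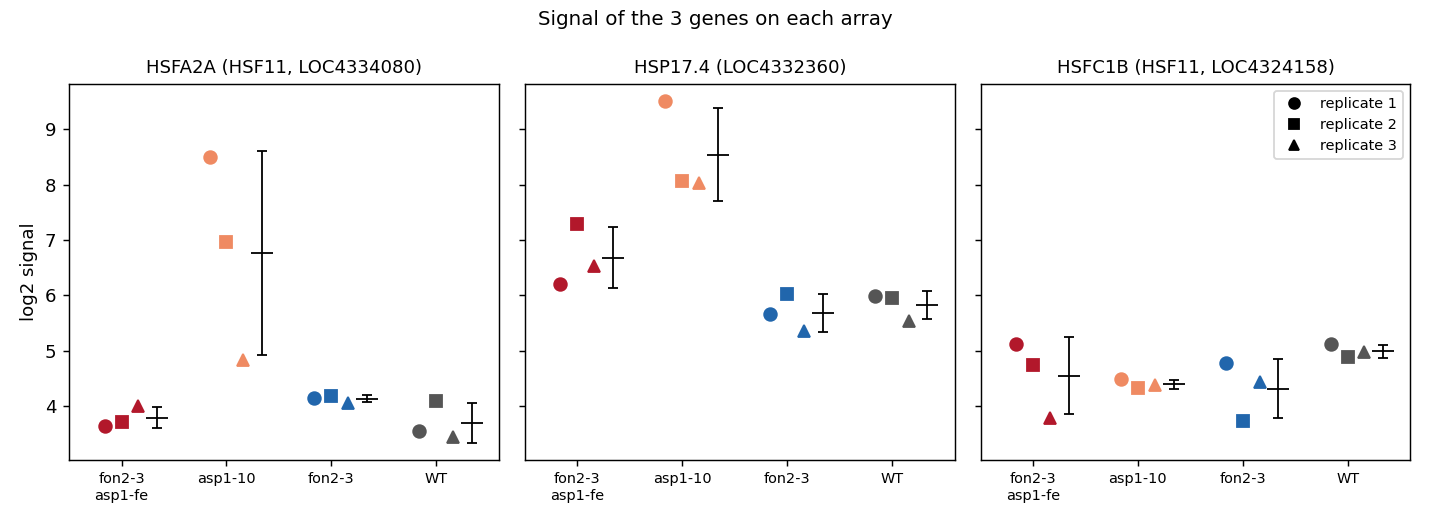
Log2 signal of HSFA2A, HSP17.4 and HSFC1B (vertical axes) on each array of fon2-3 asp1-fe, asp1-10, fon2-3 and WT, with symbols for the replicates and a bar for the mean and SD of 3 arrays. HSFA2A runs from 4.84 to 8.50 in asp1-10, HSP17.4 forms steps at 8.54 in asp1-10 and 6.68 in the double mutant, and HSFC1B stays dim throughout.

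The order of the means differed between the genes. For HSFA2A it was asp1-10, fon2-3, double mutant and WT. Only the step below asp1-10 and the step between fon2-3 and the double mutant were free of overlap between neighbours. For HSP17.4 the order was asp1-10, double mutant, WT and fon2-3, and only WT and fon2-3 overlapped. For HSFC1B the order was WT, double mutant, asp1-10 and fon2-3, and each neighbouring pair overlapped.

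The comparison of asp1-10 with WT asks what changes when the ASP1 corepressor is impaired. It chose HSFA2A and HSP17.4, so its values are a description with no test. HSFA2A was 8.39-fold higher in asp1-10 (log2 difference 3.07, SE 0.655), and HSP17.4 was 6.55-fold higher (log2 difference 2.71, SE 0.386). HSFC1B differed by -0.60 (SE 0.316). Of all probes, 12.6% had all asp1-10 arrays above all WT arrays, 12% had them all below, and 2.11% passed the test at an adjusted p of 0.05 in either direction.

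The size of the HSFA2A difference depended on which asp1-10 arrays were used. It was 4.6-fold without replicate 1 and 16.4-fold without replicate 3, the array that stood apart (log2 differences 2.20 and 4.03). HSP17.4 moved less, between 4.67-fold without replicate 1 and 7.8-fold without replicate 3. Both genes read highest in replicate 1. HSFA2A also differed widely between replicates 2 and 3, whereas HSP17.4 was nearly level there.

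The double mutant was compared with fon2-3 to ask what an asp1 allele adds where FON2 is impaired, and none of its arrays enters the asp1-10 minus WT difference by which the genes were chosen, although earlier results of all arrays were known. HSP17.4 was 1.99-fold higher in the double mutant (log2 difference 0.99, SE 0.386, 95% interval 0.15 to 1.84), with all 3 double mutant arrays above all 3 fon2-3 arrays. It did not pass the limma test (adjusted p = 0.897, unadjusted p = 0.0254), and an exact two-sided permutation test gave p = 0.1, the smallest p that 3 arrays against 3 allow. HSFA2A differed by -0.34 (SE 0.655, 95% interval -1.78 to 1.10), with every double mutant array below every fon2-3 array (limma adjusted p = 0.986, exact permutation p = 0.1). HSFC1B differed by 0.24 (SE 0.316, 95% interval -0.46 to 0.93), with overlap (limma adjusted p = 0.976, exact permutation p = 0.6). In this comparison 0.0091% of all probes were called, 4.93% had all double mutant arrays above fon2-3, and 5.52% had all below.

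The standard error of HSFA2A is pooled over all genotypes and is mostly the spread within asp1-10. The excess of the double mutant over the sum of the single-mutant differences from WT came to -3.41 (SE 0.926) for HSFA2A, -1.72 (SE 0.546) for HSP17.4 and 0.83 (SE 0.446) for HSFC1B. These values share the arrays on which the genes were chosen and have no test, and 0.0127% of all probes were called for this quantity.

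**Figure D2:**
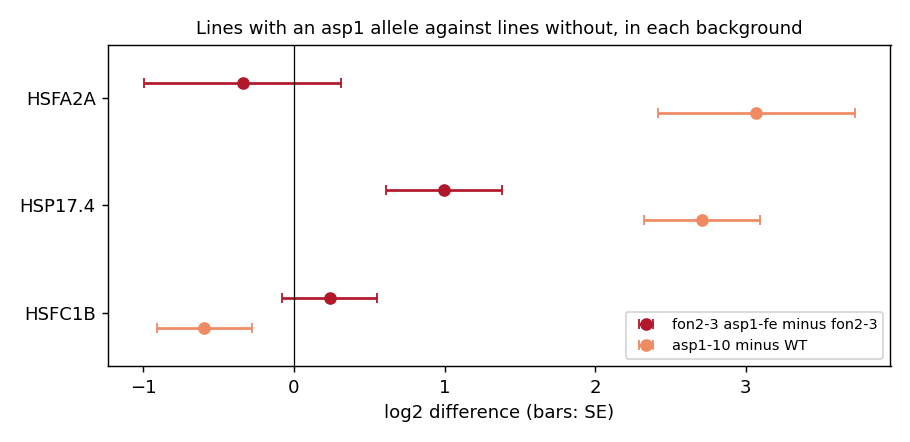
Log2 difference with its SE (horizontal axis) for HSFA2A, HSP17.4 and HSFC1B between lines with and without an asp1 allele, as fon2-3 asp1-fe minus fon2-3 and as asp1-10 minus WT. HSP17.4 is above 0 in both (0.99 and 2.71), and HSFA2A is at -0.34 and 3.07.

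The remaining pairs use asp1-10 or WT arrays and are again descriptions. Set against asp1-10, the double mutant was lower by 7.85-fold for HSFA2A and 3.63-fold for HSP17.4 (log2 differences -2.97 and -1.86), without overlap, where 5.27% of probes had all double mutant arrays below asp1-10 and 0.0146% were called. asp1-10 was 6.2-fold above fon2-3 for HSFA2A and 7.24-fold for HSP17.4, also without overlap, where 5.48% of probes had all asp1-10 arrays above and 0.0109% were called. For HSFA2A the log2 differences of these pairs were -2.11 and 1.76 without asp1-10 replicate 1, and -3.94 and 3.6 without replicate 3. Set against WT, the double mutant was 1.8-fold higher for HSP17.4 (log2 difference 0.85, SE 0.386), without overlap, and differed by 0.10 for HSFA2A and -0.44 for HSFC1B, with overlap. In that comparison 16.2% of probes had all double mutant arrays above WT and 4.29% were called. fon2-3 differed from WT by 0.44 for HSFA2A and -0.15 for HSP17.4, with overlap, and by -0.68 for HSFC1B, without. There 5.22% of probes were called, and 11.9% had all fon2-3 arrays below WT.

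ASPR2 (LOC4327709), a TOPLESS-family corepressor gene, was higher in both lines with an asp1 allele than in fon2-3 and WT. It read 10.88, 10.75 and 11.13 in the double mutant, 11.02, 10.84 and 10.68 in asp1-10, 8.39, 9.45 and 9.03 in fon2-3, and 8.74, 8.74 and 8.78 in WT. It rose in the double mutant against fon2-3 (log2 difference 1.96, SE 0.221, limma adjusted p = 0.0284) and in asp1-10 against WT (2.09, limma adjusted p = 0.00698). The 2 lines with an asp1 allele differed by 0.07 (SE 0.221, limma adjusted p = 0.972). For HSFA2A the same pair of lines was 2.97 log2 units apart, with the double mutant at the lower value (difference -2.97). HSP17.4 differed by -1.86 in that pair. It was 0.99 higher in the double mutant than in fon2-3, which did not pass the test, and 2.71 higher in asp1-10 than in WT. What sets these differences was not tested.

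The rest of the heat-shock response was described through 30 other genes with a probe: 12 HSF factors, 6 small heat shock proteins, 5 HSP100 and Clp proteins, 4 BiP proteins of the HSP70 family, 1 HSP90 and 2 co-chaperones. None passed the test in any of the 7 comparisons in limma. Of all probes, 4.29% passed in the double mutant against WT, 2.11% in asp1-10 against WT and 5.22% in fon2-3 against WT. In the other comparisons 0.0091% to 0.0146% passed. In asp1-10 against WT, 6 of the 30 (20.0%) were higher with an unadjusted p below 0.05, where 10.5% of all probes were. At that level 0 of the 30 were lower, where 7.97% of all probes were. These shares are over all probes, dim ones included. With dim probes left out, 8132 of 29409 probes had an unadjusted p below 0.05 in either direction, against 10170 of 54922 with all probes. An excess of the 30 over brighter probes was therefore not shown. The median difference of the 30 was 0.08 against -0.01 over all probes, and 6 of 30 (20.0%) had all asp1-10 arrays above WT, where 12.6% of all probes did. In the double mutant against WT, 2 of 30 were higher and 0 lower at that unadjusted level (13.1% and 8.42% of all probes), with a median of -0.07. In fon2-3 against WT these were 2 and 1 (14.5% and 8.74% of all probes), with a median of -0.09. In the double mutant against fon2-3 they were 0 and 1 (2.69% and 2.7% of all probes), with a median of -0.03. In the double mutant against asp1-10 they were 2 and 7 (4.49% and 3.3% of all probes), with a median of -0.24, and in asp1-10 against fon2-3 they were 5 and 2 (3.69% and 5.47%), with a median of 0.22. For the excess of the double mutant over the single mutants they were 0 and 4 (5.39% and 7.56%).

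Among the 6 other small heat shock genes all had a positive difference in asp1-10 against WT, with a median of 0.48, and 4 of 6 (66.7%) had all asp1-10 arrays above WT, where 12.6% of all probes did. HSP16.9C, a class I small heat shock gene, read 4.90, 5.09 and 5.38 in the double mutant, 8.67, 7.50 and 5.67 in asp1-10, 5.37, 4.56 and 5.07 in fon2-3, and 5.35, 5.16 and 5.04 in WT. The asp1-10 arrays were again the highest and again widely spread, and the other genotypes were dim. Its difference in asp1-10 against WT was 2.10 (SE 0.554, limma adjusted p = 0.0731). HSP17.7 differed by 1.27 at its brighter probe (SE 0.381, limma adjusted p = 0.104) and 0.27 at its other, and HSP23.2, dim in all genotypes, by 0.66 (SE 0.18, limma adjusted p = 0.0791). HSP17.8, HSP18.0 and HSP18.9 differed by 0.29, 0.08 and 0.04. Closely related small heat shock genes can share probe sequence, so the signal of one may include its relatives, which was not tested.

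HSP17.4 had a larger difference between the double mutant and fon2-3 (0.99) than the other small heat shock genes. That difference did not pass the test, and its 95% interval (0.15 to 1.84) takes in the 0.29 of HSP23.2. Against fon2-3 the differences of these other genes ran from -0.31 to 0.29, with a median of -0.03. Of the 6, 1 (HSP23.2) had all double mutant arrays above, where 4.93% of all probes did. HSP23.2 read 4.03, 3.81 and 4.04 in the double mutant, 4.80, 3.998 and 4.20 in asp1-10, 3.68, 3.56 and 3.76 in fon2-3, and 3.55, 3.77 and 3.70 in WT. Its means had the same order as those of HSP17.4, but they were dim, and its double mutant and asp1-10 arrays overlapped. HSP17.7 read 7.04, 6.59 and 7.56 in the double mutant and 7.17, 7.75 and 7.20 in fon2-3, with overlap. The difference of HSP17.4 from these genes was not tested.

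Of the 12 other HSF factors, 0 passed the test in asp1-10 against WT, where 2.11% of all probes did. Their differences from WT ran from -0.47 to 0.14, with a median of -0.09, and 0 of 12 had all asp1-10 arrays above WT, where 12.6% of all probes did. The related class A2 genes HSFA2B, HSFA2C and HSFA2D differed by -0.15, -0.38 and 0.13 (limma adjusted p = 0.872, 0.672 and 0.747). In the double mutant HSFB4C, of a class without the activation motif of class A, had the smallest adjusted p of the list against WT (log2 difference 0.86, SE 0.266, limma adjusted p = 0.0906). It was also 0.64 above WT in fon2-3 (SE 0.266, limma adjusted p = 0.174), and in asp1-10 it differed by 0.06.

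In the classes other than small heat shock genes, with HSFA2A and HSFC1B left out, the ClpB chaperone genes CLPB-M and CLPB-C had the largest differences between asp1-10 and WT. CLPB-M, named for the mitochondrial form, read 4.48, 4.34 and 6.99 in the double mutant, 9.16, 8.33 and 7.26 in asp1-10, 5.78, 7.02 and 4.71 in fon2-3, and 5.77, 6.37 and 6.24 in WT. All asp1-10 arrays lay above WT (difference 2.12, SE 0.742, limma adjusted p = 0.151). CLPB-C, the form named for the chloroplast, read 6.89, 6.73 and 7.74 in the double mutant, 9.39, 8.67 and 7.40 in asp1-10, 6.88, 7.49 and 7.03 in fon2-3, and 7.46, 7.20 and 7.04 in WT. Replicate 3 of asp1-10 lay inside the WT range (difference 1.25, SE 0.425, limma adjusted p = 0.141). BIP1, an endoplasmic reticulum chaperone of the HSP70 family, differed by 1.16 in asp1-10 against WT (SE 0.436, limma adjusted p = 0.18) at its brighter probe and by -0.11 at its other. The HSP90 gene HSP81-1 and the co-chaperone gene OsSGT1 differed by 0.205 and 0.295.

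**Figure D3:**
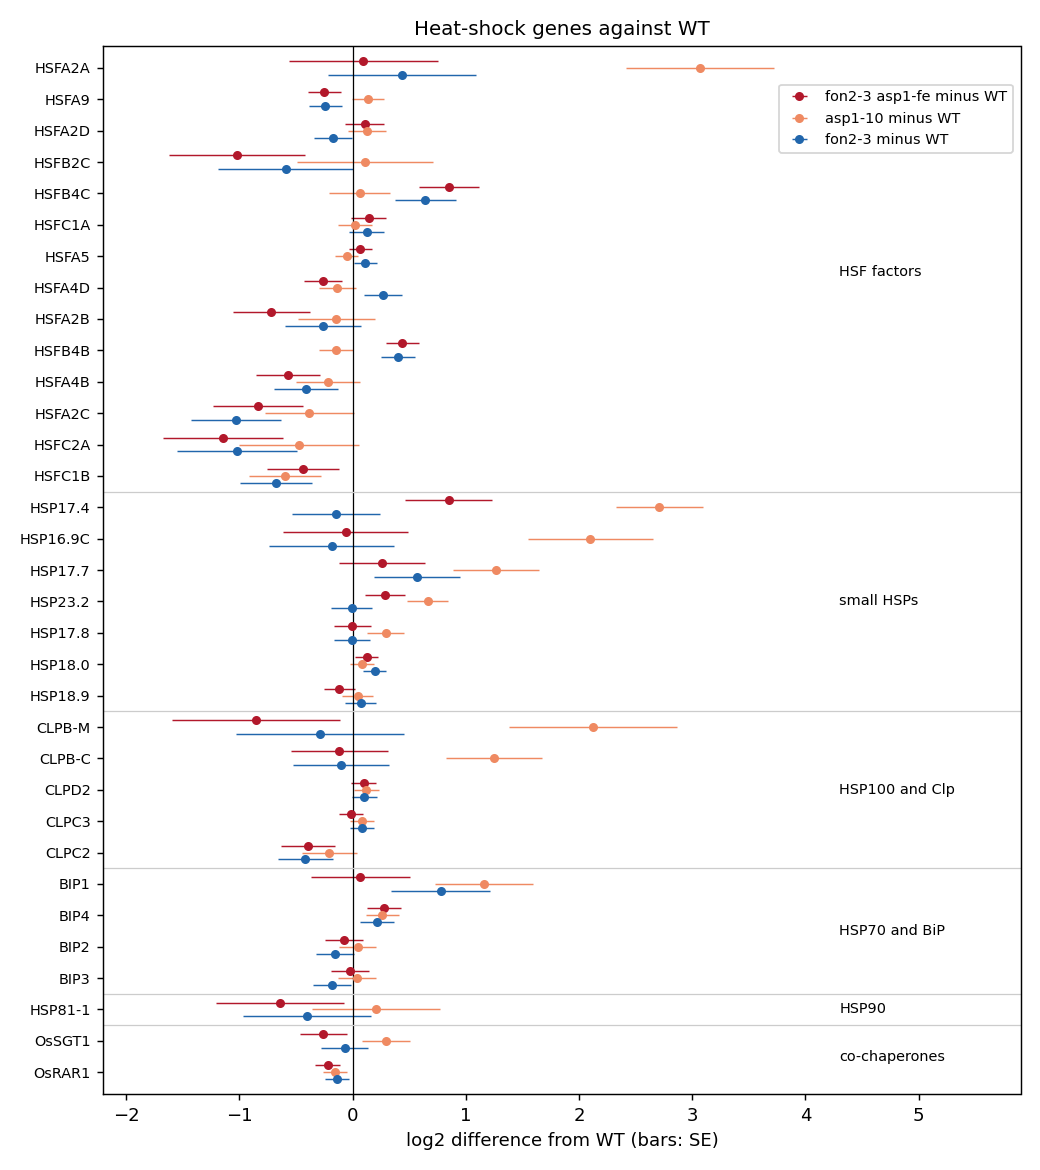
Log2 difference from WT with its SE (horizontal axis) for the 33 heat-shock genes, by class, in fon2-3 asp1-fe, asp1-10 and fon2-3. HSFA2A, HSP17.4, CLPB-M and HSP16.9C lie above 2 in asp1-10 alone, while the 12 HSF factors not named HSF11 lie between -0.47 and 0.14 there.

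Many of these genes read highest in replicate 1 within asp1-10. Replicate 1 of asp1-10 was the highest of all 12 arrays in 11 of the 30 other heat-shock genes (36.7%), against 6.57% of all probes. Within asp1-10 it was the highest in 18 of 30 (60.0%), against 28.7% of all probes. Replicate 3 was the lowest asp1-10 array in 14 of 30 (46.7%), against 33.8% of all probes. By class it was lowest in all 5 HSP100 and Clp genes and 5 of 12 HSF factors (41.7%). It was lowest in 2 of 6 small heat shock genes (33.3%), 1 of 4 BiP genes, 1 of 2 co-chaperone genes and 0 of 1 HSP90 gene. Without replicate 3 the limma test called 2 of the 30 in asp1-10 against WT: HSP16.9C (2.90, adjusted p = 0.0133) and CLPB-C (1.79, adjusted p = 0.0491), where 0.391% of all probes were called. Without replicate 2 it called HSP23.2 (0.83, adjusted p = 0.0497), where 1.54% of all probes were called. The array left out was in each case the lowest asp1-10 array of the gene called, so these calls are descriptions. HSP16.9C and CLPB-C were not called without replicate 1 (limma adjusted p = 0.129 and 0.317) or without replicate 2 (0.139 and 0.248).

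Other stress and clock genes varied over the same arrays. PDC1, a pyruvate decarboxylase gene of fermentation, read 9.51, 6.05 and 5.49 in the double mutant, 11.72, 11.46 and 5.35 in asp1-10, 9.55, 5.81 and 7.76 in fon2-3, and 6.02, 11.58 and 10.94 in WT. It was high in the asp1-10 arrays with high HSFA2A, and as high in WT replicates 2 and 3, where HSFA2A was 4.10 and 3.44. The mean of 7 low-oxygen genes was 6.61 to 7.72 in the double mutant, 6.36 to 8.82 in asp1-10, 6.67 to 7.62 in fon2-3 and 6.72 to 8.64 in WT. LHY, a morning clock gene, read 5.84, 6.34 and 10.16 in the double mutant, 10.00, 9.82 and 8.40 in asp1-10, 6.88, 9.83 and 6.79 in fon2-3, and 9.43, 8.43 and 8.38 in WT. Replicate 3 of the double mutant had high LHY with HSFA2A at 4.01. LHY did not pass against WT, and of the 6 clock genes OsPRR37, a pseudo-response regulator gene, fell in each mutant, by -0.58 in the double mutant, -1.04 in asp1-10 and -0.48 in fon2-3 (limma adjusted p = 0.0304, 0.00805 and 0.0462). Of the 7 low-oxygen genes 0 passed against WT in any mutant, where 2.11% to 5.22% of all probes did. The part of time of day or low oxygen in the heat-shock values was not tested.

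**Figure D4:**
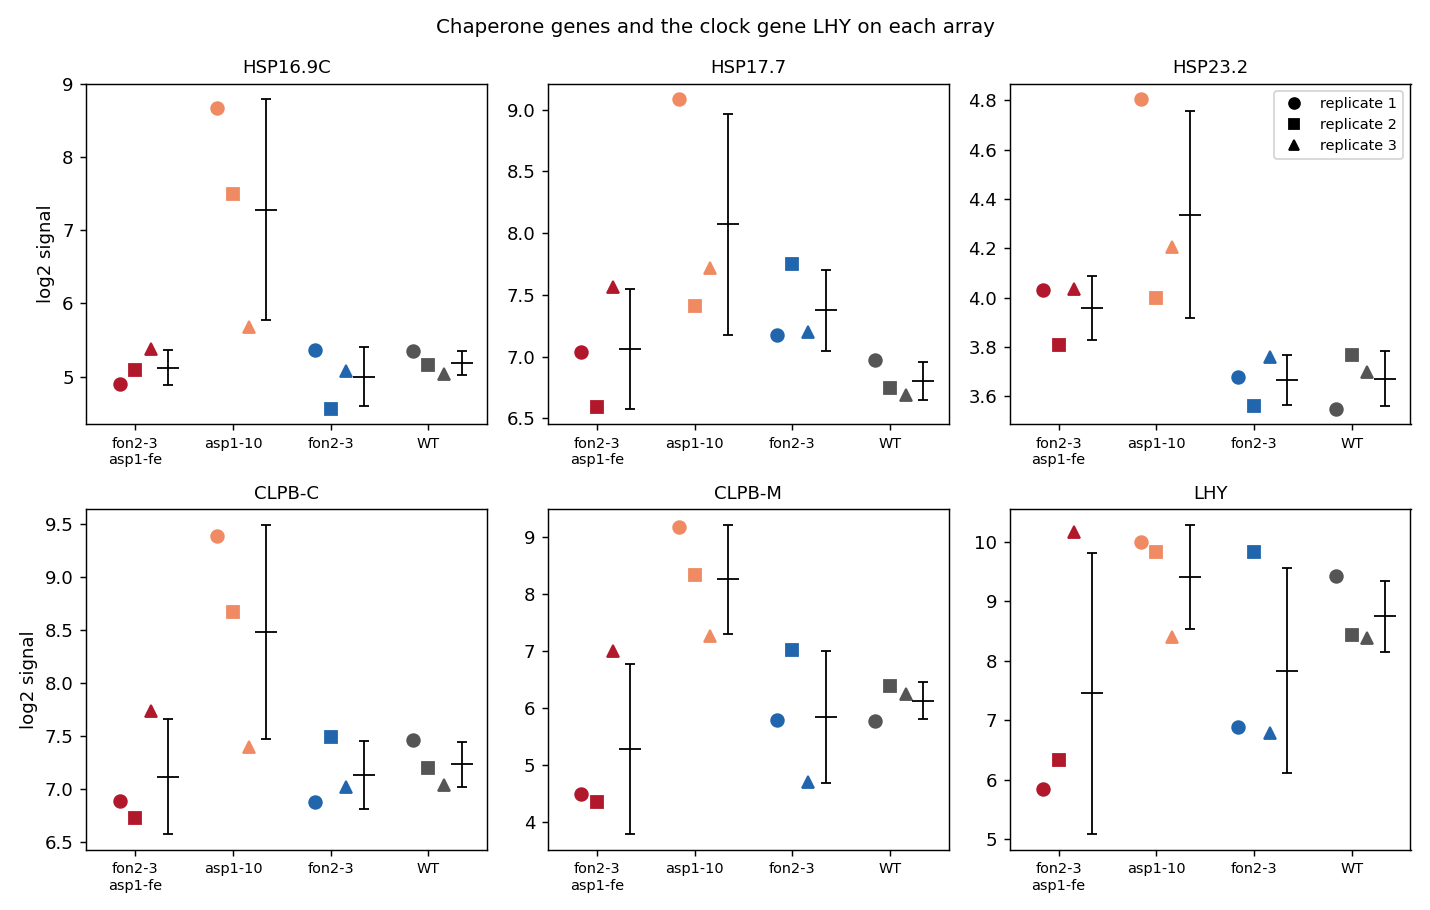
Log2 signal (vertical axes, each with its own range) of HSP16.9C, HSP17.7, HSP23.2, CLPB-C, CLPB-M and the clock gene LHY on each array of the 4 genotypes, with the mean and SD of 3 arrays. In asp1-10, replicate 1 is the highest array in each panel, and replicate 3 is the lowest for HSP16.9C, CLPB-C, CLPB-M and LHY.

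Markers of other tissues were also set beside the groups. The mean of 3 anther and tapetum markers was 4.12 to 4.26 in the double mutant, 4.27 to 4.75 in asp1-10, 4.14 to 4.44 in fon2-3 and 4.29 to 4.42 in WT, and all 3 were dim in every genotype. Against WT, 0 of 3 passed the limma test in asp1-10, where 2.11% of all probes did. UDT1 differed there by 0.80 (limma adjusted p = 0.102), TDR by -0.08 and CYP703A3 by -0.23. The mean of 5 green tissue markers was 4.16 to 4.55 in the double mutant, 4.08 to 4.86 in asp1-10, 4.21 to 4.40 in fon2-3 and 4.98 to 5.41 in WT. Of the 5, PSAH, a photosystem I subunit gene, fell in each mutant against WT, by -1.13 in the double mutant, -1.21 in asp1-10 and -1.19 in fon2-3 (limma adjusted p = 0.0281, 0.0284 and 0.0214). OEE3, a photosystem II gene, fell in the double mutant and in fon2-3 (-1.86 and -1.90, limma adjusted p = 0.0357 and 0.0323) and differed by -1.39 in asp1-10 (adjusted p = 0.1). CAB1R, CAB2R and PSAG did not pass against WT, and PSAG had a positive difference in asp1-10 (0.38). Of 2 vascular and wall markers, CESA4 rose in each mutant against WT (0.71, 0.61 and 0.51 in the same order, limma adjusted p = 0.0155, 0.0296 and 0.0354), and CESA9 did not pass. The anther and green tissue means were lowest in replicate 3 among the asp1-10 arrays, as HSFA2A was and as 33.8% of all probes were. The anther marker CYP703A3 was highest there (4.31), as was the meristem mean (7.72). The vascular and wall mean was lowest in replicate 1 (6.50). The part of tissue make-up in the HSFA2A values was not tested.

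The genes most like each member over the 12 arrays were ranked by Pearson's r among 1740 other named genes. For HSFA2A these were HSP16.9C (0.967), CLPB-C (0.928), OsNtrC (0.926), a plastid thioredoxin reductase gene, OC-V (0.911) and WRKY9 (0.904), a WRKY factor gene. HSP17.4 came at rank 9 (r = 0.853), and r with HSFC1B was -0.26. These correlations rest mainly on the asp1-10 arrays. HSFA2A and HSP17.4 were both chosen by their difference between asp1-10 and WT, so their r with each other was partly set by that choice. After each genotype mean was removed, HSP16.9C was again the most alike (0.939), followed by OsRan3 (0.921), R1C-Prx (0.909), OsNtrC (0.9) and BGLU31 (0.891), and HSP17.4 fell to rank 84 (r = 0.658). These values too rest mainly on the asp1-10 arrays, where HSFA2A had an SD of 1.84, against 0.0608 to 0.354 in the other genotypes. R1C-Prx and BGLU31 were dim in all 4 genotypes.

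For HSP17.4 the most alike were OsSUS4 (0.902), a sucrose synthase gene, AGO18 (0.887), an Argonaute gene, OsTPK3 (0.861), HSP23.2 (0.856) and HSFA2A (0.853), which was chosen by the same difference. Within genotypes they were MUB4 (0.915), OsRAR1 (0.858), a co-chaperone gene of disease resistance, NSF (0.831), OsPht1;7 (0.822) and OsUGE-3 (0.817). OsPht1;7 and OsUGE-3 were dim in all 4 genotypes. For HSFC1B they were OsPP2C09 (0.872), OsWOX9 (0.867), OsPSY3 (0.842), NAC068 (0.831) and LPA (0.816), with OsWOX9, OsPSY3 and LPA also among the first 5 within genotypes. Like HSFC1B, OsWOX9 and LPA were dim in all 4 genotypes, and OsPSY3 was dim in all but the double mutant, so these signals may be background. No heat-shock gene was among the 5 most like HSFC1B on either measure. The arrays share genotype and sample quality, so these correlations are descriptions over 12 arrays.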

How the data were processed

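RNA of dissected inflorescence meristems was hybridised to 12 Affymetrix arrays. The authors deposited 1 table of log2 signals, made with Affymetrix Expression Console 1.3 per the submitters' processing notes. Background correction, normalization, summarisation and log base are steps the sources used here do not describe, and base 2 was taken from the range of the values. Of 54922 probes, 15829 had 1 gene symbol in the platform annotation, 440 had several and 38653 had none. Further names came from the rice gene table of assembly ASM3414082v1. Where a gene had several probes, the brightest on average was used. No sequence or position was used here.

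One linear model of genotype over the 12 arrays was fitted by lmFit and eBayes of limma 3.58.1 in R 4.3.3, with 8 residual and 3.22 prior degrees of freedom. Tests were two-sided, with Benjamini-Hochberg adjustment over all probes and a threshold of 0.05. The procedure was tested on simulated data. The spread these p-values rest on is that between the deposited samples and may be technical, and 3 arrays per genotype limit the precision. The members and lists were chosen with earlier results of these data known. For the members, only fon2-3 asp1-fe minus fon2-3 was tested. Named were the members, heat-shock genes called in a comparison, HSF factors, small heat shock genes, the gene with the largest change against WT in each other class, the 5 genes most like each member, and ASPR2. Clock and low-oxygen genes and tissue markers were named after their values were seen. The BiP list was narrowed after the names were seen: 8 genes whose names start with BIP but denote other proteins were left out. The alternatives were cyclic loess, median centring, leaving out dim probes, only the 6 arrays compared, a robust prior with a variance trend, array weights, a replicate block, 1 probe per identical profile, and leaving out each array.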

Additional observations from a re-analysis of the deposited data

Results flagged for a closer look

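HSFA2A was marked for the order of its arrays in the 2 backgrounds. Every double mutant array lay below every fon2-3 array (log2 difference -0.34, SE 0.655, limma adjusted p = 0.986, both genotypes dim), and every asp1-10 array lay above every WT array (log2 difference 3.07, the difference that chose the gene). The SE is pooled and mostly the spread within asp1-10 (SD 1.84, against 0.191 in the double mutant and 0.0608 in fon2-3). The limma test could therefore not settle a difference of this size, and a direction in the double mutant was not shown. The difference between these effects was not tested, because the asp1-10 arrays chose the gene. The asp1 alleles also differ between the 2 backgrounds, and HSFA2A was dim in every genotype but asp1-10.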

How the results depend on the processing

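Among the 3 tested differences of double mutant minus fon2-3, the sign turned only for HSFC1B (0.24): it was -0.0518 without fon2-3 replicate 2 and -0.0521 without double mutant replicate 1 (limma adjusted p of 0.999 and 1.0). The cause was not tested. With single arrays left out, the double mutant minus fon2-3 difference ran from -0.45 to -0.27 for HSFA2A, 0.69 to 1.23 for HSP17.4 and -0.05 to 0.62 for HSFC1B, and no alternative gave a call. Leaving out dim probes removed HSFC1B, and the interaction has no fit on 6 arrays.

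Counts of called probes depended on the setting. For asp1-10 minus WT (1157) they were 2507 without dim probes, 2 on the 6 arrays compared, 1775 with the variance trend and 508 with the replicate block, and 163 to 1202 with single arrays left out. For fon2-3 minus WT (2866) they were 4718 without dim probes, 4421 with array weights and 1475 with the block, and 1 to 4554 with arrays left out. For the double mutant minus WT (2358) they were 4191, 4192 and 1147 under the same 3 settings, and 18 to 3998. For the double mutant minus fon2-3 (5) they were 2 on 6 arrays and 2 with the block, and 2 to 8. For the double mutant minus asp1-10 (8) they were 14 without dim probes, 3 on 6 arrays and 4 with the block, and 4 to 100. For asp1-10 minus fon2-3 (6) they were 14 with loess, 41 without dim probes, 1 on 6 arrays, 22 with the trend, 13 with weights, 1 with the block and 23 with 1 probe per identical profile, and 1 to 300. For the interaction (7) they were 4 with loess, 22 without dim probes, 12 with the trend, 2 with the block and 15 with 1 probe per profile, and 1 to 25.

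Among the 30 other heat-shock genes, asp1-10 minus WT gave 1 call without dim probes and 1 with array weights (HSP16.9C in both, limma adjusted p of 0.0435 and 0.0286), and 0 to 2 with arrays left out. The filter on dim probes kept a probe that was bright in any genotype. HSP16.9C stayed through asp1-10 alone (mean 7.28), so its call without dim probes is a description. With arrays left out the counts were 0 to 2 for asp1-10 minus fon2-3, 0 to 1 for the double mutant minus WT and 0 to 1 for the double mutant minus asp1-10. Those calls came without asp1-10 replicate 3 or without double mutant replicate 3. The first were HSP16.9C and CLPB-C against fon2-3 and HSP16.9C against the double mutant, and the second was HSFA2B. In each case the array left out was the one nearest the compared group, so these calls are descriptions. Same-numbered arrays did not deviate together (correlations from -0.182 to 0.106), so the replicate block does not stand for a pairing.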
